A study of Homo sapiens with 6 samples.

Results

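The SOX genes encode transcription factors that bind DNA through an HMG box, a domain that bends the double helix at sequences with the core AACAAT. They are sorted into subgroups by the likeness of this box: SOX2 stands in subgroup B1, SOX4 and SOX12 in C, SOX5, SOX6 and SOX13 in D, SOX9 in E, SOX18 in F and SOX15 in G. In liver, SOX9 is known as a factor of bile duct cells and of progenitor cells, and SOX4 and SOX9 both act during formation of the bile ducts. SOX4 is also widely known as a gene that TGFβ induces in epithelial and breast cells, and SOX9 works with SOX5 and SOX6 to switch on cartilage genes. Here the 9 SOX genes named above were picked by symbol from the 57773 genes counted in HepG2 cells, a hepatocellular carcinoma line, and each symbol matched a single row of the table.

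RNA was sequenced from 6 cultures of HepG2 at a passage under 20, all grown in MEM medium with fetal bovine serum, which the study's methods replace with medium free of serum before treatment. In the TGFβ group, 3 cultures received recombinant human TGFB1 at 5 ng/mL for 3 h, and in the vehicle group 3 cultures received its vehicle for the same time. All comparisons concern 1 cell line, 1 dose and 1 time, at the level of RNA. The labels only number the cultures, and the study's methods call the sequenced samples biological replicates. The libraries held 60815385 to 100099136 reads assigned to genes. Two-sided tests were run with edgeR's quasi-likelihood method over 22747 genes with enough reads, and a gene was called at an FDR (the P value after Benjamini-Hochberg adjustment over these genes) under 0.05. Counts per gene are given as CPM, reads scaled to library size after edgeR's TMM normalization. Cultures of the same number deviated together, so values with the culture number as a block (the paired fit) are given where they change a call. The treatment labels were checked on SMAD7, an inhibitory SMAD, which had a log2 fold change of 1.72 (SE, the standard error, 0.11 and FDR 3.733e-05). The 6 hepatocyte markers, among them ALB and APOB, summed to 33540 to 37270 CPM with vehicle and to 32180 to 36000 CPM with TGFβ, and 0 of them were called without the block. In the paired fit 1 of them, TTR, was lower (log2 fold change -0.25, SE 0.07, FDR 0.0495).

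Of the 9 SOX genes, 8 had enough reads for testing. SOX5 and SOX9 fell and SOX13 rose with TGFβ, while SOX4, SOX6, SOX12, SOX15 and SOX18 did not pass the threshold. Lower calls thus numbered 2 of 8, where 1.01% of all tested genes were called lower, and higher calls numbered 1 of 8, where 3.11% of all tested genes were called higher. In the paired fit SOX6 also fell and SOX18 also rose, which made 3 lower and 2 higher, against 3.75% lower and 8.08% higher among all tested genes. In each direction 2 of the 8 genes had no overlap between the groups, SOX13 and SOX18 upward and SOX5 and SOX9 downward. Among all tested genes, 10.4% had every TGFβ culture above every vehicle culture and 8.23% had every TGFβ culture below. The median log2 fold change was -0.05 over the 8 SOX genes and -0.01 over all tested genes. In a bulk culture, fewer cells that express a gene and less of its RNA per cell cannot be told apart.

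To set the SOX genes side by side, the deposited RPKM was used, which scales reads to the length of each gene and to the library. SOX9 stood highest, followed in the vehicle cultures by SOX12, SOX4, SOX18, SOX13, SOX5, SOX15, SOX6 and SOX2. SOX9 had 53.6, 46.8 and 50.8 RPKM with vehicle and 37.1, 36.9 and 31.5 RPKM with TGFβ. SOX12 followed at 23.4, 19.7 and 22.5 RPKM with vehicle and 25.5, 20.8 and 19.2 RPKM with TGFβ. SOX9 and SOX12 together held between 76.2% and 82.0% of the RPKM summed over the 9 genes in every culture. A group of mid-level genes came next, with vehicle means of 5.98 ± 0.913 RPKM (SD, n = 3) for SOX4, 4.48 ± 0.168 RPKM for SOX18, 3.47 ± 0.0626 RPKM for SOX13 and 2.61 ± 0.18 RPKM for SOX5. SOX15 at 0.262 ± 0.0266 RPKM and SOX6 at 0.144 ± 0.0447 RPKM were low. With vehicle, no neighbors in this order overlapped between cultures. With TGFβ, SOX18 at 5.4 ± 0.355 RPKM and SOX4 at 5.32 ± 0.692 RPKM overlapped, as did SOX4 and SOX13 at 4.6 ± 0.152 RPKM, and the other neighbors did not. The length used for the RPKM of SOX4 and SOX12 equals the whole gene, 4876 and 4659 bases, so it takes in more than the coding sequence. For SOX6 the length was 19632 bases and for SOX15 it was 1541. By mean vehicle CPM SOX6 (3.41) stood above SOX15 (0.489), so their order in RPKM depends on these lengths.

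**Figure D1:**
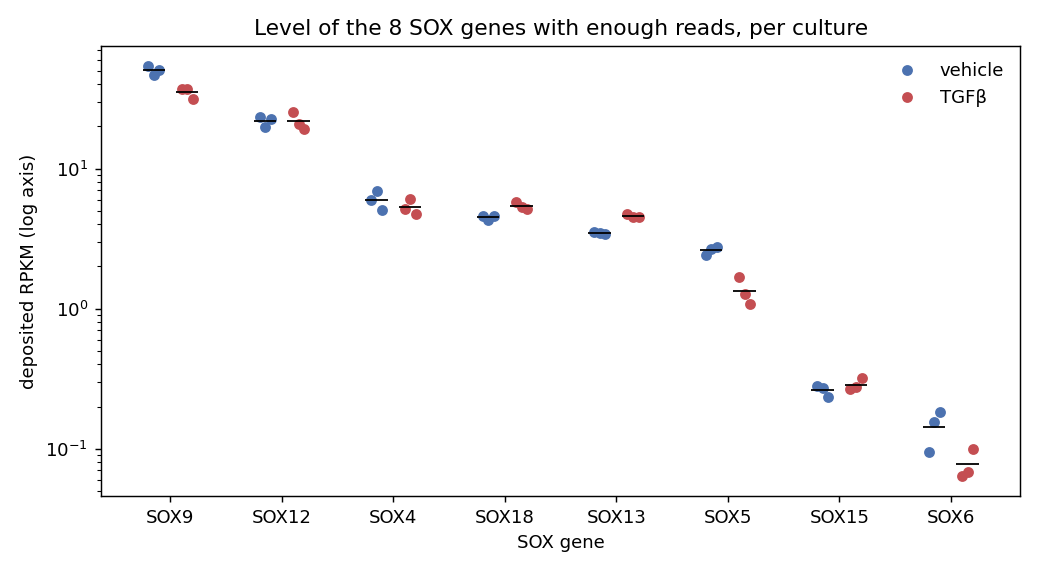
Deposited RPKM on a log axis for the 8 SOX genes with enough reads, with a point for each vehicle (blue) and TGFβ (red) culture and a black line at the mean of 3. SOX9 and SOX12 lie above the mid-level genes, and SOX15 and SOX6 lie below 1 RPKM.

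The promoters of the SOXD genes are shown because this subgroup holds a gene that fell, a gene that rose and a gene whose call changed with the fit. Sequences of the 250 bases before a start site were read from RefSeq (GRCh38.p14), whose table matched 6 of the 9 genes, all but SOX9, SOX15 and SOX18. Motifs were searched on both strands and are printed in capitals: the SOX core (AACAAT or ATTGTT), the SMAD core (CAGAC or GTCTG) and the AP-1 element (TGANTCA). SOX5 is shown at chr12:24562492-24562741 on the minus strand, SOX13 at chr1:204072865-204073114 on the plus strand, and SOX6 on the minus strand at the farthest upstream of its 5 starts in that table, chr11:16738478-16738727, and at the start with most SOX cores, chr11:16356547-16356796.
SOX5: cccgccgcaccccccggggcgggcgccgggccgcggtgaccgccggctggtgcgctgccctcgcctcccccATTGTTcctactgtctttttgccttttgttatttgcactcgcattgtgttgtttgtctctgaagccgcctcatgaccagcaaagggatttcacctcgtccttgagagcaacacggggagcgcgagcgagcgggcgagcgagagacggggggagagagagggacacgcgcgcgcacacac
SOX13: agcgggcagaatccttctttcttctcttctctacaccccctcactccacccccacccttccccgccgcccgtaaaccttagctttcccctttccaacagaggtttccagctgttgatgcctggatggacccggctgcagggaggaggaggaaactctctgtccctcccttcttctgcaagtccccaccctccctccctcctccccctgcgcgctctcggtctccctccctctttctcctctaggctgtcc
SOX6, upstream start: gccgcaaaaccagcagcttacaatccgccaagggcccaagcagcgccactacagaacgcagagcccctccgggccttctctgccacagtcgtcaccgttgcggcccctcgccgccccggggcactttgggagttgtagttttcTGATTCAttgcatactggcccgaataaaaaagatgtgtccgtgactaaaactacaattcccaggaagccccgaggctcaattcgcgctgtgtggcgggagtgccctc
SOX6, internal start: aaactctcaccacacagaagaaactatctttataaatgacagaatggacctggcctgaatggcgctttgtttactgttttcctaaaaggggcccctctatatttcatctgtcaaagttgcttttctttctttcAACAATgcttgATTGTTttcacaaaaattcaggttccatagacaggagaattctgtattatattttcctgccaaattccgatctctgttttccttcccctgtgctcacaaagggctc

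The SOX5 window held a SOX core that begins 179 bases before the start, and neither of the other motifs. This start lies upstream of the SOX5 span in the deposited table, which ends at 24103966 in hg19. Which start the counted SOX5 reads came from was not tested. The internal SOX6 window held a pair of SOX cores in opposite orientation, 117 and 106 bases before the start, and of the 5 SOX6 windows, 3 held a SOX core, 1 a SMAD core and 1 an AP-1 element. The SOX13 window held none of the 3 motifs, nor did those of SOX2 and SOX4, and that of SOX12 held a SMAD core 58 bases before the start. Among the 35116 promoters of the table, 8.98% held a SOX core, 38.0% a SMAD core and 6.57% an AP-1 element in the same length. These shares were not matched for GC content, and the SOX core is mostly A and T. GC content was 39.2%, 40.8% and 27.2% in the 3 SOX6 windows with a SOX core. It was 37.6% in the SOX6 window with a SMAD core and 58.8% in that with an AP-1 element. These are matches of letters and say nothing about binding.

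The SOXD genes moved in different directions. These factors lack a domain that activates or represses transcription by itself and act with partners. SOX5 (ENSG00000134532) is placed on chromosome 12 (minus strand) from 23682440 to 24103966 in hg19. It had 26.1, 28.0 and 29.8 CPM in the vehicle cultures and 18.3, 13.7 and 12.3 CPM in the TGFβ cultures. All 3 TGFβ cultures were below every vehicle culture, and the vehicle cultures lay closer together than the treated ones. The mean fell from 28.0 ± 1.85 CPM (SD, n = 3) to 14.8 ± 3.14 CPM, a log2 fold change of -0.92 (SE 0.14, FDR 0.00481 in the edgeR fit), so the level with TGFβ was 0.528 times that with vehicle (95% interval 0.426 to 0.655). By culture number the log2 differences were -0.51, -1.03 and -1.28, all downward and of uneven size. The call held with any single culture left out.

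SOX6 (ENSG00000110693), at positions 15987995 to 16761138 of chromosome 11 (minus strand), is the closest relative of SOX5 and represses fetal globin genes in red cells. It had 2.28, 3.57 and 4.39 CPM with vehicle and 1.55, 1.6 and 2.52 CPM with TGFβ. The TGFβ culture 3 was above the vehicle culture 1, so the groups overlapped, yet within each number the TGFβ culture was the lower, with log2 differences of -0.56, -1.16 and -0.80. The log2 fold change was -0.85 (SE 0.27) and did not pass without the block (FDR 0.155), and it was -0.84 (SE 0.16, FDR 0.00402) in the paired fit. Without TGFβ replicate 3 it passed as well (FDR 0.0482). SOX6 had 129 to 296 reads per culture, where SOX5 had 896 to 2318.

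SOX13 (ENSG00000143842), at positions 204042243 to 204096863 of chromosome 1 (plus strand), is the remaining member of the subgroup and has been described as a modulator of TCF factors in Wnt signaling. It had 32.1, 30.0 and 31.1 CPM with vehicle and 43.5, 40.1 and 43.4 CPM with TGFβ, without overlap. The mean rose from 31.1 ± 1.06 CPM (SD, n = 3) to 42.4 ± 1.98 CPM, a log2 fold change of 0.45 (SE 0.07, FDR 0.00805), or 1.36-fold (95% interval 1.22 to 1.53). The 3 numbers gave nearly equal log2 differences of 0.44, 0.42 and 0.48. The ratio of the RPKM of SOX5 to that of SOX13 within each library, which does not depend on how libraries are scaled, was 0.679, 0.778 and 0.8 with vehicle and 0.351, 0.285 and 0.236 with TGFβ. The ratio also rests on the lengths used, 8879 bases for SOX5 and 7412 for SOX13, the same in every library. By these lengths SOX5 RNA was below SOX13 RNA with vehicle and further below with TGFβ.

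**Figure D2:**
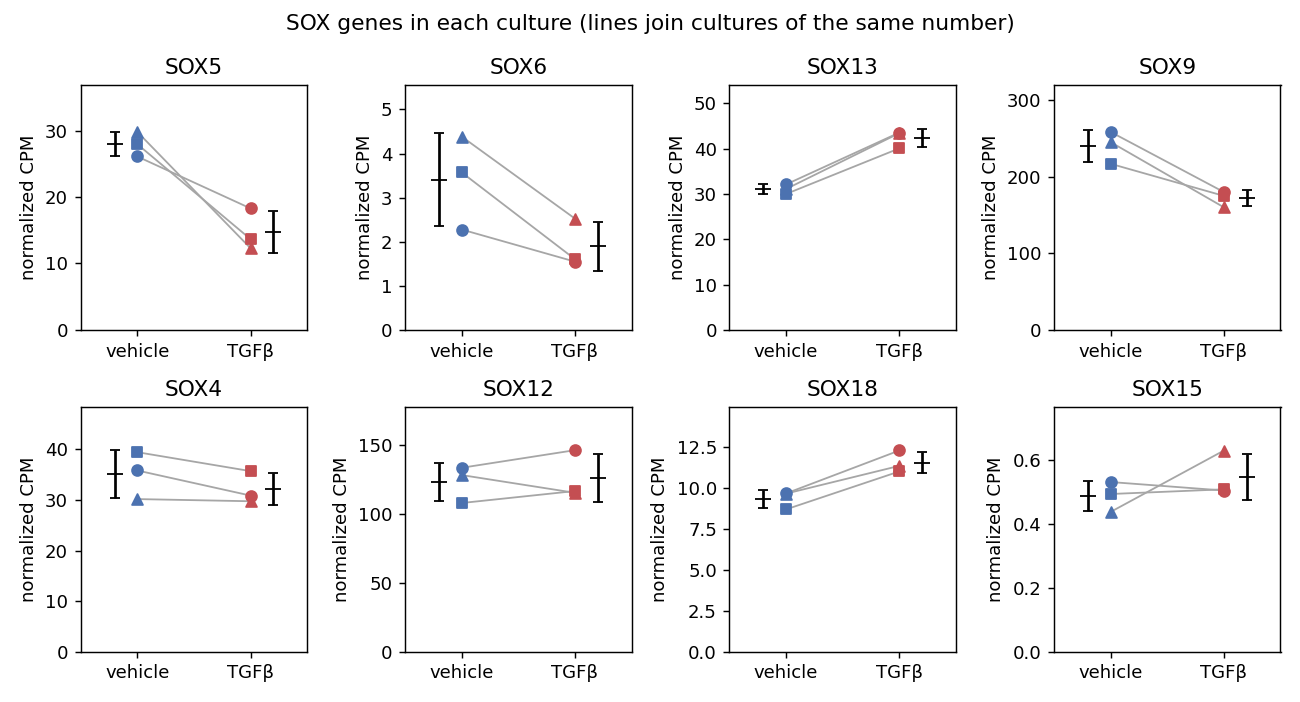
Normalized CPM of each tested SOX gene by culture, with vehicle in blue and TGFβ in red; circles, squares and triangles are cultures 1, 2 and 3, gray lines join cultures of the same number, and bars show mean ± SD of 3. SOX5 and SOX9 fall and SOX13 rises without overlap, and the lines of SOX6 all run downward although its groups overlap.

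SOX9 (ENSG00000125398), the only SOXE gene in the set, is placed on chromosome 17 (plus strand) from 70117161 to 70122561. It had 258, 217 and 245 CPM with vehicle and 180, 175 and 160 CPM with TGFβ. Every TGFβ culture was below every vehicle culture. The mean fell from 240.1 ± 21.2 CPM (SD, n = 3) to 172 ± 10.4 CPM, a log2 fold change of -0.48 (SE 0.09, FDR 0.0109), so TGFβ cultures held 0.715 times the vehicle level (95% interval 0.626 to 0.816). By number the log2 differences were -0.52, -0.31 and -0.61. The call was lost without vehicle replicate 3 (FDR 0.0631) at a log2 fold change of -0.47, and it held with any other single culture left out. SOX9 made up 57.1%, 55.6% and 56.8% of the RPKM summed over the 9 genes with vehicle, and 46.2%, 49.1% and 47.3% with TGFβ. The ratio of SOX9 to SOX12 within each library went from 2.29, 2.38 and 2.26 to 1.46, 1.78 and 1.64, again without overlap.

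**Figure D3:**
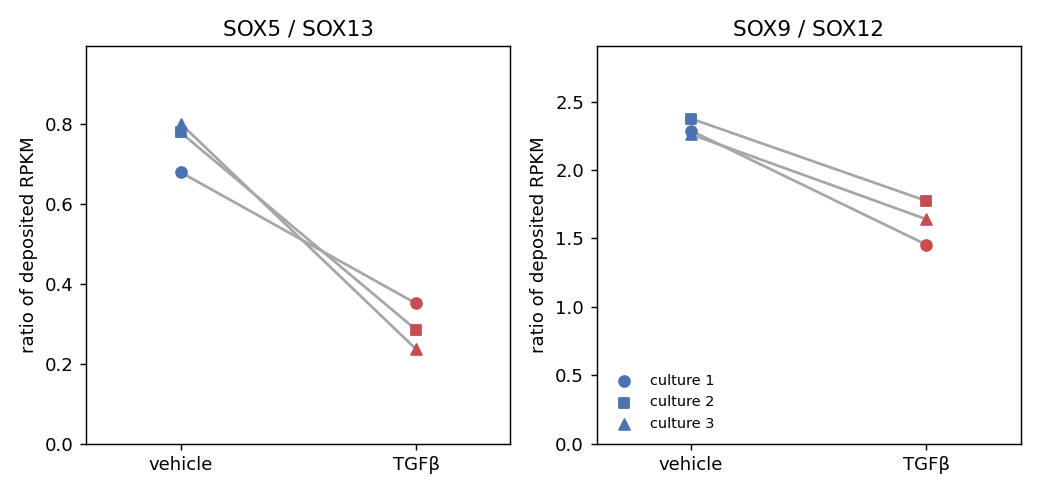
Ratio of the deposited RPKM of SOX5 to SOX13 (left) and of SOX9 to SOX12 (right) within each library, with circles, squares and triangles for cultures 1, 2 and 3 and lines joining cultures of the same number. Both ratios are lower in all 3 TGFβ cultures (red) than in any vehicle culture (blue).

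SOX4 and SOX12 are the SOXC genes of the set, each with a single exon. SOX4 (ENSG00000124766), at positions 21593972 to 21598847 of chromosome 6 (plus strand), had 35.9, 39.5 and 30.2 CPM with vehicle and 30.9, 35.7 and 29.8 CPM with TGFβ. The groups overlapped, and each TGFβ culture was below its numbered partner, with log2 differences of -0.22, -0.14 and -0.02. The log2 fold change was -0.13 (SE 0.11, FDR 0.73), and the 95% interval of the ratio ran from 0.767 to 1.09. It was not called in the paired fit either (FDR 0.227). SOX12 (ENSG00000177732), at positions 306207 to 310865 of chromosome 20 (plus strand), had 134, 108 and 128 CPM with vehicle and 146, 117 and 115 CPM with TGFβ, with overlap. Its log2 fold change was 0.03 (SE 0.11, FDR 0.944), a sign that turned with total-count scaling and without vehicle replicate 2 or TGFβ replicate 1, and the interval of the ratio ran from 0.859 to 1.22.

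SOX18 (ENSG00000203883), a SOXF gene known from blood and lymph vessels, is placed on chromosome 20 (minus strand) from 62679076 to 62680994. It had 9.67, 8.7 and 9.66 CPM with vehicle and 12.3, 11.0 and 11.4 CPM with TGFβ, without overlap. The log2 fold change was 0.31 (SE 0.1) and missed the threshold without the block (FDR 0.186), and it was 0.31 (SE 0.08, FDR 0.0356) in the paired fit. Of 3 endothelial markers 2 matched by symbol, of which KDR had 0 reads and CDH5 had 8 to 10 reads per culture. SOX15 (ENSG00000129194), the SOXG gene, at positions 7491496 to 7493488 of chromosome 17 (minus strand), had 27 to 49 reads per culture. Its values were 0.532, 0.495 and 0.439 CPM with vehicle and 0.506, 0.51 and 0.631 CPM with TGFβ, a log2 fold change of 0.16 (SE 0.24, FDR 0.864), with an interval of the ratio from 0.771 to 1.61. SOX2 (ENSG00000181449), a pluripotency and neural factor at positions 181429714 to 181432221 of chromosome 3 (plus strand), had 2 reads in vehicle replicate 2, 1 read in TGFβ replicate 1 and 0 in the other 4 cultures. At 0 reads a level of up to 0.034 to 0.0487 CPM, or 3 reads in these libraries, is allowed for counting error alone, and no fold is given.

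**Figure D4:**
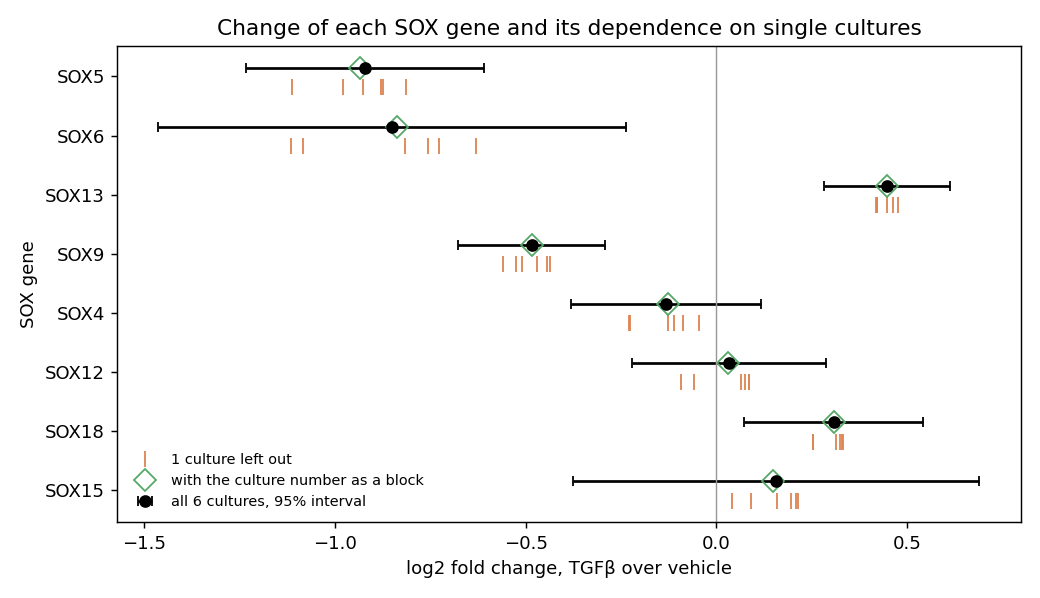
Fitted log2 fold change of each tested SOX gene, TGFβ over vehicle, with its 95% interval (black), the value in the paired fit (green diamonds) and the values with a single culture left out (orange ticks). The intervals of SOX5, SOX6 and SOX9 lie below 0, those of SOX13 and SOX18 above, and those of SOX4, SOX12 and SOX15 span 0.

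The places of the genes bear on how firmly their reads can be assigned, since neither the strand setting nor the handling of overlapping genes is stated in the sources used here. SOX9-AS1, on the opposite strand, spans all of SOX9 and had 30 to 38 reads per culture (log2 fold change -0.21, SE 0.27, FDR 0.832), while SOX9 had 11662 to 22811. The overlapping rows of SOX7 held 550 and 577 reads in vehicle replicate 1, so reads in shared parts appear to count on both rows. The 3′ part of SOX18 overlaps the 5′ part of ZNF512B on the same strand, which had a log2 fold change of -0.14 (FDR 0.624). ZNF512B had 7245 to 11923 reads per culture and SOX18 had 595 to 1192. How many of the SOX18 reads lie in the shared part was not tested. SOX15 lies within MPDU1 on the opposite strand, with 4963 to 7917 reads in MPDU1 and a log2 fold change of 0.01 (FDR 0.978). SOX12 is covered by the antisense gene RP5-1103G7.4, which had 218 to 353 reads and a log2 fold change of -0.45 (FDR 0.131 and 0.0401 in the paired fit). The 5′ part of SOX6 overlaps C11orf58 on the opposite strand, which had 8303 to 13322 reads, far more than SOX6, and a log2 fold change of 0.01 (FDR 0.958). RP11-449L13.2, inside SOX6 on the same strand, had 13 to 22 reads and a log2 fold change of 0.03 (FDR 0.984). SOX2-OT, around SOX2, had 4 to 12 reads per culture. SOX4 and SOX13 overlap no other gene of the table, and SOX5 overlaps only a gene with at most 2 reads. In the GENCODE annotation on GRCh37, SOX5 reaches up to 24715478, beyond its end in the deposited table, and has 20 start sites, where SOX6 has 17, SOX13 has 9 and SOX4, SOX9, SOX12 and SOX18 have 1 each.

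Most other SOX genes had few or no reads. Of 10 further genes (11 rows), SOX7, in a pair of overlapping rows, and SOX8 were tested, and 0 were called in either direction with or without the block. The larger SOX7 row had 7.41 ± 0.896 CPM with vehicle and 6.48 ± 0.919 CPM with TGFβ, a log2 fold change of -0.20 (SE 0.15, FDR 0.686). SOX3 and SOX14 had 0 reads in all cultures, and SOX1, SOX10, SOX11, SOX17, SOX21 and SOX30 had at most 5 reads in any culture.

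Genes that work with or downstream of the SOX factors were followed in 5 lists written from general knowledge. Of 13 cartilage genes known as SOX9 targets, 7 were tested and 0 were called, with a median log2 fold change of 0.29 and a positive value for all 7. In the paired fit 3 rose: COL9A3, a chain of type IX collagen (177 ± 32.7 to 222 ± 30.9 CPM, FDR 0.0113), MATN3, a matrilin (143 ± 33.0 to 180 ± 20.9 CPM, FDR 0.00432), and COMP, a cartilage matrix protein (4.16 ± 1.84 to 6.13 ± 2.12 CPM, FDR 0.00535). The groups of all 3 genes overlapped. COL2A1, the main collagen of cartilage, had 15.7 ± 5.2 CPM with vehicle and 16.4 ± 5.19 CPM with TGFβ (log2 fold change 0.07, FDR 0.953). Of the fibroblast markers, COL1A2, COL3A1, DCN and LUM had too few reads for testing, and COL1A1 had 7.54 ± 2.27 CPM with vehicle and 11.2 ± 0.964 CPM with TGFβ (FDR 0.193 and 0.00806 in the paired fit). The 5 fibroblast markers summed to 5.5 to 10.0 CPM with vehicle and 10.7 to 12.6 CPM with TGFβ. Nearly all of this sum was COL1A1, with 5.35 of the 5.5 CPM in vehicle replicate 2. The part of these markers in the cartilage list was not tested.

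Of 11 biliary and progenitor genes, 10 matched by symbol and 9 of these were tested, on 10 rows, with 0 called and a median log2 fold change of 0.05. SPP1, the osteopontin gene, had 803 ± 73.5 CPM with vehicle and 867 ± 94.3 CPM with TGFβ (log2 fold change 0.11, FDR 0.755). KRT19, a bile duct keratin, had 198 ± 20.9 and 207 ± 21.6 CPM (log2 fold change 0.06, FDR 0.875). In the paired fit KRT7, the other duct keratin, rose from 0.199 ± 0.0815 to 0.499 ± 0.109 CPM (log2 fold change 1.37, FDR 0.023). KRT7 had only 12 to 18 reads per culture with vehicle and 30 to 50 with TGFβ. In the same fit ONECUT1, a liver and bile duct transcription factor, fell from 3.27 ± 0.484 to 2.09 ± 0.341 CPM (log2 fold change -0.64, FDR 0.0114). JAG1, a Notch ligand, also fell there on both of its rows, of which the smaller lies inside the larger (larger row, log2 fold change -0.21, FDR 0.03).

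**Figure D5:**
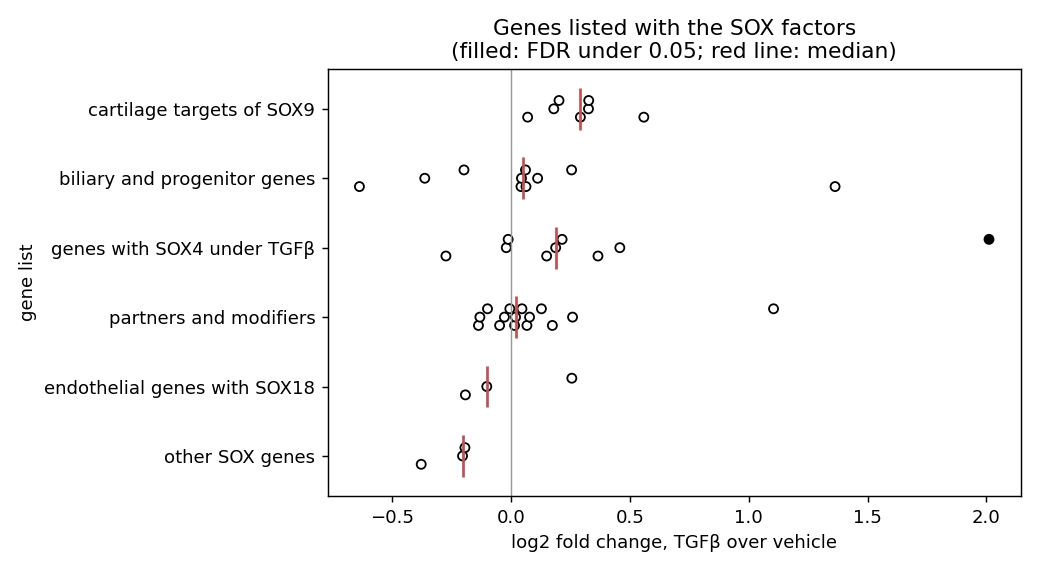
Log2 fold change, TGFβ over vehicle, of each tested row of the 5 lists and of the other SOX genes, filled where the FDR was under 0.05, with a red line at the median of each list. The single filled point is BMF at 2.01.

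Of 8 genes reported with SOX4 under TGFβ, 9 rows were tested. By edgeR 3 of these rows were at an unadjusted P under 0.05, where 13.7% of all tested genes were. Only 1 was called, where 3.11% of all tested genes were called higher and 1.01% lower. BMF, a BH3-only gene that promotes apoptosis, had 50.4, 36.9 and 53.6 CPM with vehicle and 188, 186 and 193 CPM with TGFβ. It rose without overlap between the groups, with a log2 fold change of 2.01 (SE 0.13, FDR 3.733e-05). BCL2L11, which encodes the related protein BIM, had 29.2 ± 2.6 CPM with vehicle and 37.6 ± 5.51 CPM with TGFβ (log2 fold change 0.36, FDR 0.147) and rose in the paired fit (FDR 0.0028), as did 1 of the 2 overlapping rows of TUBB3, a tubulin. EZH2, a histone methyltransferase, had a log2 fold change of 0.15 (FDR 0.502) and SNAI1, an EMT factor, of -0.28 (FDR 0.787). Of 15 partners and modifiers of SOX proteins, 15 were tested and 0 called, with a median log2 fold change of 0.02. LEF1, a Wnt transcription factor, had the largest of these at 1.10 (SE 0.46, FDR 0.31), on 2 to 20 reads per culture. CTNNB1, the β-catenin gene, rose in the paired fit (542 ± 32.6 to 648 ± 14.4 CPM, FDR 0.00476). Of 7 vessel genes that go with SOX18, 3 were tested and 0 called, and PROX1, which hepatocytes also express, fell in the paired fit (113 ± 2.34 to 98.8 ± 6.55 CPM, FDR 0.0471). Of the lists without a call by edgeR, the genes at an unadjusted P under 0.05 numbered 1 of 7 for cartilage, 3 of 10 rows for the biliary list, 2 of 15 for the partners, 1 of 3 for the vessel genes and 0 of 3 rows for the other SOX genes, where 13.7% of all tested genes were at such a P. DESeq2 called 1 higher and 1 lower in the biliary list and 1 higher among the partners, and 0 in the other 3, and limma-voom called 0 in these 5 lists. All these paired calls are read against the 8.08% higher and 3.75% lower among all tested genes.

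The nearest tested gene on each side of each of the 9 SOX genes, leaving out genes that overlap it, was added after the values had been seen. Of these 18 neighbors 2 were called, both higher, where 3.11% of all tested genes were called higher and 1.01% lower. LINC00511, a noncoding RNA that lies 196703 bases beyond SOX9, had 2352 to 3126 reads with vehicle and 3826 to 4722 reads with TGFβ, a log2 fold change of 0.47 (SE 0.08, FDR 0.00805), where that of SOX9 was -0.48. PLEKHA7, a gene of adherens junctions 38704 bases beyond the 5′ end of SOX6, had a log2 fold change of 0.78 (SE 0.08, FDR 0.000475), where that of SOX6 was -0.85. In the paired fit 3 neighbors were higher and 0 lower, where 8.08% of all tested genes were higher and 3.75% lower. The added gene was TCEA2, which encodes a transcription elongation factor and starts 195 bases from SOX18. It had a log2 fold change of 0.26 (FDR 0.555 and 0.0414 in the paired fit). By Pearson's r of log2 CPM over the 6 cultures, the tested genes most like SOX9 were SYTL2 (r = 0.997), PPAN-P2RY11 (r = 0.991) and ISL2 (r = 0.991), with log2 fold changes of -0.39, -0.38 and -0.42. Those most like SOX4 were SNORD87 (r = 0.989), N6AMT1 (r = 0.985) and HERPUD1 (r = 0.982), with log2 fold changes of -0.46, -0.17 and -0.18. These are the highest values over all tested genes, from few cultures that share libraries and treatment, and are given as a description.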

How the data were processed

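RNA from 6 HepG2 cultures (3 vehicle, 3 TGFβ) was made into TruSeq v2 mRNA libraries by the authors, and the submitters' processing notes name TopHat2 2.0.6, HTSeq and hg19. The deposited table holds the raw count per gene, a whole number without normalization. The deposited RPKM beside it was scaled by the authors to gene length and library and was used only to order genes and form ratios. The sources used here do not state the strand setting, the annotation or how overlapping genes were counted.

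The members, the lists and the tests were chosen with earlier results of these data known. Counts were tested in R 4.3.3 with edgeR 4.0.16, using TMM factors, filterByExpr and the robust quasi-likelihood test (no block), with Benjamini-Hochberg adjustment over 22747 genes. Each standard error was derived from the F statistic. The smallest two-sided P of an exact permutation test would be 0.1 here. Named genes are the 9 SOX genes, genes overlapping them, the called genes of each list (up to 4), and the 3 genes most like SOX4 and SOX9. Marker and list genes named without a call, and those called only with the block, were chosen after their values were seen. The fits were tested on simulated counts. Replicate libraries were distinct (chi-square per gene of 21.0 to 46.2 between them), and each counted as a sample. Deviations from the group means, correlated across genes, gave 0.366, 0.227 and 0.316 for cultures of the same number and at most 0.0101 for others. Same-numbered cultures were treated as pairs in the paired fit and in the differences by number, and not in the main test. Cultures 1 and 2 of both groups shared a lane with their partner (lanes 1 and 3), and cultures 3 were run on lanes 4 and 5, so differences by number are also within-lane values for 1 and 2. The alternatives tried were the block, each culture left out, DESeq2 1.42.0, limma-voom (limma 3.58.1), scaling by DESeq2's size factors or by total counts, and the filter removed or set to at least 10 reads per library.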

Additional observations from a re-analysis of the deposited data

How the results depend on the processing

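SOX5, SOX13, SOX4 and SOX15 kept their direction and their side of the threshold under all 13 alternatives, with log2 fold changes from -1.11 to -0.81 for SOX5 and from 0.41 to 0.48 for SOX13. SOX9 ranged from -0.56 to -0.44 and lost the threshold only without vehicle replicate 3 (FDR 0.0631). SOX6 ranged from -1.11 to -0.63 and passed with the replicate block (FDR 0.00402), with DESeq2 (FDR 0.0289) and without TGFβ replicate 3 (FDR 0.0482). SOX18 ranged from 0.25 to 0.33 and passed only with the block (FDR 0.0356). SOX12 turned negative with total-count scaling (-0.009) and without vehicle replicate 2 (-0.06) or TGFβ replicate 1 (-0.093), and reached 0.086 without vehicle replicate 1. With the replicate block 2 SOX genes were higher and 3 lower, and of all genes 1837 were higher and 853 lower, against 707 and 230 without it. Leaving out single cultures gave between 1 and 3 lower SOX genes and 1 higher, and of all genes between 394 and 778 higher and between 91 and 220 lower, both lowest without vehicle replicate 3. More than 1.5 times fewer were also found without vehicle replicate 2 (414 higher, 104 lower), without TGFβ replicate 2 (439 and 122) and, for lower genes, without TGFβ replicate 1 (144). All genes called lower numbered 366 without a filter and 406 with DESeq2. The cause of these shifts was not tested. Total-count scaling moved the median of all genes by -0.04. The order of the 9 genes by level was the same by TMM-normalized counts per kilobase. These use the same counts and gene lengths as the RPKM, so they could hardly change the order, and other lengths were not tried. SOX2 and SOX15 are limited by their low read counts.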
